A study of Mus musculus with 3 samples.

Results

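B_cell_3 is the smallest of the 3 B cell clusters that were named among immune cells of the mouse kidney. Its members were taken as the cells that carry the name B_cell_3 in the deposited raw count table, and they numbered 247 of 20266 cells. The other B cells were 3759 cells of B_cell_1 and 352 cells of B_cell_2. All kidneys came from untreated wild-type male C57BL/6J mice aged 10 weeks, and no group carried a transgene or a drug. Kidneys were dissected by hand into the cortex, the OM (outer medulla) and the IM (inner medulla), and live CD45+ cells were sorted and run on droplet single-cell RNA-seq. Each compartment was prepared at 3 facilities (Aachen, Bonn and Hamburg), and the facility served as the replicate. The 9 pairs of facility and compartment are called libraries here, whatever the number of 10x runs behind each. Whether a library held 1 mouse or pooled mice is not given in the sources used here, so the spread between facilities contains mouse, kit and handling differences together.

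B lymphocytes carry a surface receptor made of an immunoglobulin heavy chain and a kappa or lambda light chain, paired with the signalling proteins CD79A and CD79B. Mature follicular B cells recirculate through blood, lymph and tissues and are known by CD23 (Fcer2a), IgD and the homing receptors CXCR5 and L-selectin, whereas recently formed cells still express genes such as Vpreb3. In a droplet assay each cell is read as a set of unique molecular identifiers (UMIs), and its total reflects how much RNA entered the droplet as well as how deeply the library was sequenced.

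B_cell_3 was mainly a Hamburg cluster. Hamburg gave 225 of the 247 cells (66 from cortex, 73 from OM and 86 from IM), Bonn gave 21 (10, 6 and 5), and Aachen gave 1 cell, from the OM. Among the B cells of a library, B_cell_3 made up 14.5% in Hamburg cortex (95% exact Clopper-Pearson interval 11.4 to 18.1), 14.1% in OM (11.2 to 17.4) and 17.3% in IM (14.1 to 20.96). In Bonn the same shares were 0.911% (0.438 to 1.67), 3.24% (1.20 to 6.93) and 0.952% (0.310 to 2.21). Aachen cortex held 0 of 208 B cells, which allows a share of up to 1.44%, Aachen OM held 1 of 516 (0.194%), and Aachen IM held 0 of 357, which allows up to 0.840%. No interval of a Hamburg library overlapped one from Bonn or Aachen. These intervals cover counting error only. B_cell_2, by contrast, made up 7.31% of B cells in Aachen, 9.02% in Bonn and 7.49% in Hamburg.

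**Figure D1:**
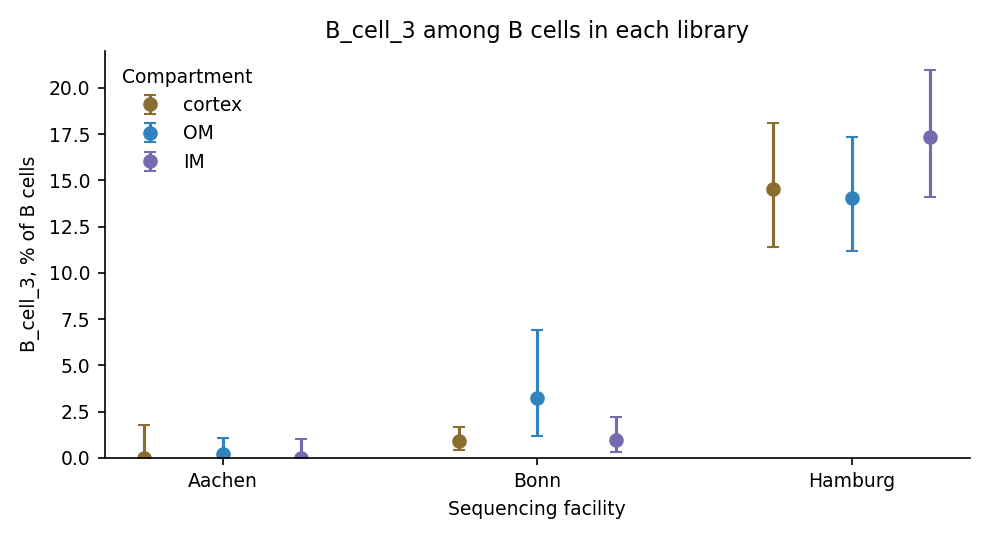
Share of B_cell_3 among B cells (%, y axis) in the 9 libraries, grouped by facility (x axis) and coloured by compartment; points are shares and bars are 95% exact binomial intervals. The Hamburg libraries lie between 14.1% and 17.3%, and every Bonn and Aachen library lies at or below 3.24%.

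The facilities differed in depth and in file type. The median cell of a library held between 744 and 1270 UMIs in Aachen, between 3209.5 and 3505 in Bonn, and between 2802 and 3067 in Hamburg. Aachen used an older version of the 10x kit. The deposited values were whole numbers in Aachen and Bonn but fractional estimated counts in Hamburg. Within a facility the compartments shared at most 8 barcode sequences, and 0 cell names were duplicated. Barcodes carried 6 suffixes in Aachen, 3 in Bonn and 1 in Hamburg, so a library may not be a single run. Because the cells named B_cell_3 were unlike one another between Hamburg and Bonn, as the values below show, the facilities are described separately and most statements concern the 225 Hamburg cells. A cluster is built from its own expression values, so levels set against B_cell_1 and B_cell_2 are a description and carry no test.

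The B cell identity of B_cell_3 held by its markers for the cluster as a whole, though not for each cell. All 247 cells had at least 1 UMI of the 14 B cell markers, and the median in Hamburg was 9 marker UMIs per cell. A single such UMI does not mark a B cell. In Hamburg the mean per cell was 9.59 in B_cell_3, 1.72 in T_cell_1 and 0.652 in Malat+_T_cell. Some Bonn cells and the Aachen cell also held macrophage transcripts, as given below. Cd79a, the receptor's signalling chain, was seen in 175 of the 225 Hamburg cells, Ms4a1 (CD20) in 113, and either gene in 191. All 21 Bonn cells and the Aachen cell had Cd79a. Against all Hamburg cells outside the B cell clusters, the 10 genes highest by fold in B_cell_3 included Fcer2a, Scd1, Ms4a1, Cd79a, Fcmr, Pax5, Bank1, Ebf1 and Cd22, with log2 ratios of CPM, the counts of a gene per 1e+06 counts, of 6.07 for Fcer2a and 5.86 for Cd79a. With every cell thinned to 500 UMIs, Cd79a was detected in 61.8% of Hamburg B_cell_3 cells (unthinned 77.8%), against 80.6% of B_cell_1, 91.8% of B_cell_2, 0.675% of T_cell_1 and 4.82% of Malat+_T_cell, which should both lack the gene. Ms4a1 was detected in 34.7% of thinned B_cell_3 cells, 24.4% of B_cell_1, 46.4% of B_cell_2 and 0.112% of T_cell_1. Median depth was 750 UMIs in B_cell_3, 3094 in T_cell_1 and 948 in Malat+_T_cell.

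What set B_cell_3 apart from the other B cells in Hamburg was a low RNA content with few ribosomal protein transcripts. Its median cell held 696 UMIs in cortex, 750 in OM and 792 in IM, against 2631, 2517 and 2507 in B_cell_1. The 3 library medians of B_cell_3 were close to one another and all below the lower quartile of B_cell_1 (2203 UMIs), although single cells reached 4004 UMIs. Genes of ribosomal proteins, the protein part of the translation machinery, took 3.47%, 3.22% and 3.33% of UMIs in the median B_cell_3 cell of cortex, OM and IM. In the median B_cell_1 cell they took 24.6%, 25.2% and 24.95%, and in B_cell_2 17.2% over Hamburg. Malat1, an abundant noncoding RNA held in the nucleus, took 3.53% of UMIs in B_cell_3 and 0.862% in B_cell_1. Transcripts of the mitochondrial genome took 3.70% in B_cell_3 and 1.40% in B_cell_1.

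**Figure D2:**
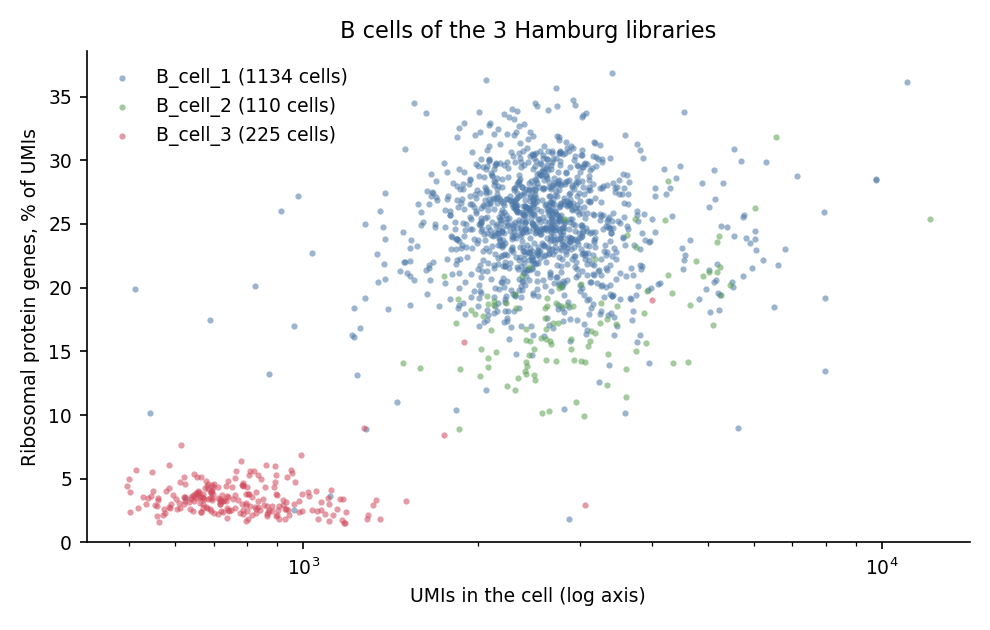
Each point is a B cell of the 3 Hamburg libraries, with its UMIs on a log x axis and the share of UMIs from ribosomal protein genes (%) on the y axis, coloured by cluster. B_cell_3 forms a separate cloud around 750 UMIs and 3.35%, and B_cell_1 lies around 2548 UMIs and 24.9%.

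The clouds of B_cell_3 and B_cell_1 scarcely met. At a ribosomal share of 8%, a line drawn after the values were seen, 4 of 225 Hamburg B_cell_3 cells lay above and 4 of 1134 B_cell_1 cells lay below. Few UMIs and few ribosomal transcripts did not always go together in B_cell_1. The 6 Hamburg B_cell_1 cells at or under the upper quartile of B_cell_3 (897 UMIs) had a median ribosomal share of 15.3%, with a range of 3.49% to 20.1%. The B_cell_1 cells of the Aachen OM library, with a median of 573 UMIs, had a median ribosomal share of 35.6%. Outside Hamburg, 4 of the 22 B_cell_3 cells lay below the 8% line. These were 4 Bonn cells of 1515 to 1968 UMIs, with ribosomal shares from 2.04% to 7.98% and a median Malat1 share of 2.54%. The median Bonn B_cell_3 cell held 1662 UMIs, 18.1% ribosomal transcripts and 1.504% Malat1, against 2746.5 UMIs, 28.4% and 0.701% in Bonn B_cell_1.

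Per gene, the Hamburg profile of B_cell_3 departed from B_cell_1 widely and in both directions. A gene was counted when it reached 100 CPM in the higher cluster, and it was called when its level differed at least 2-fold the same way in each of the 3 Hamburg libraries. Against B_cell_1, 610 of 2430 genes were higher (25.1%) and 252 were lower (10.4%). Against B_cell_2, 509 of 2604 were higher (19.5%) and 331 were lower (12.7%). Ratios carry 10 CPM added to each level. The median log2 ratio of all counted genes was not 0 but 0.89 against B_cell_1 and 0.63 against B_cell_2, so values below are best read against those medians. When CPM were taken over UMIs other than ribosomal, mitochondrial and Malat1 UMIs, the median against B_cell_1 was 0.64, with 395 genes higher and 317 lower. In Bonn the median over the same genes was 0.20.

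All 14 B cell markers were counted. Of these, 2 were called higher than in B_cell_1 and 1 lower, beside 25.1% and 10.4% of all counted genes. Their median log2 ratio was 0.05, below the 0.89 of all counted genes. Cd79a stood at 2538, 2855 and 2721 CPM in B_cell_3 of cortex, OM and IM, and at 3356, 3492 and 3472 CPM in B_cell_1, a log2 ratio of -0.34 over Hamburg. The libraries of the clusters did not overlap, but the difference was well under 2-fold. Pax5, the transcription factor that keeps B cell identity, stood at 477, 547 and 617 CPM in B_cell_3 and at 137, 161 and 149 CPM in B_cell_1, a log2 ratio of 1.82. Cd22, an inhibitory receptor of B cells, gave 392, 585 and 526 CPM against 132, 135 and 124 CPM, a log2 ratio of 1.87. All 3 libraries of B_cell_3 lay above all 3 of B_cell_1 for both genes. Ly6d, a surface protein of the B lineage, was the gene called lower, with 661, 665 and 730 CPM against 1391, 1603 and 1615 CPM (log2 ratio -1.15). In B_cell_2 Ly6d reached 5079 CPM.

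Follicular B cell genes were present. Of 10 counted genes, 1 was called higher than in B_cell_1 and 0 lower, beside 25.1% and 10.4% of all genes. Their median log2 ratio was 0.92, close to the 0.89 of all genes. The gene called was Cxcr5, the receptor that guides B cells to follicles, at 253, 328 and 373 CPM against 120, 137 and 132 CPM (log2 ratio 1.26). Fcer2a, which encodes CD23, stood at 724, 1279 and 1089 CPM in B_cell_3 and at 447, 522 and 474 CPM in B_cell_1. Its cortex library fell short of 2-fold, so it was not called despite a log2 ratio of 1.09. Against B_cell_2, at 283 CPM, Fcer2a was called, as were Ighd (464 against 142 CPM) and the complement receptor gene Cr2 (187 against 34.3 CPM). After thinning, Fcer2a was detected in 39.1% of B_cell_3 cells (32.7 to 45.8), 18.3% of B_cell_1 (16.05 to 20.6), 9.09% of B_cell_2 (4.45 to 16.1) and 0.112% of T_cell_1.

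Genes of recently formed and of innate-like B cells moved in both directions. Vpreb3, whose product associates with the immature receptor, stood at 53.5, 16.8 and 81.3 CPM in B_cell_3, at 194 CPM in B_cell_1 and at 685 CPM in B_cell_2. It was 1 of 2 transitional genes counted and the only one called against B_cell_1, with a log2 ratio of -1.70. Mzb1, a chaperone of immunoglobulin assembly, gave 74.0 CPM against 256 CPM (log2 ratio -1.66). Plac8 gave 17.5 CPM against 291 CPM (log2 ratio -3.45). In the same marginal zone list Notch2, the receptor that directs marginal zone fate, moved the other way, with 362, 561 and 456 CPM against 71.4, 94.9 and 90.1 CPM (log2 ratio 2.30). Of the 4 marginal zone genes counted, 2 were higher and 1 was lower, with a median log2 ratio of 1.27 (0.89 for all genes). Of the 3 B-1 genes counted, Ahnak was higher and Plac8 lower. Across all genes counted, 25.1% were higher and 10.4% lower. Vpreb3, Mzb1 and Plac8 were lower than B_cell_1 in Bonn too, with log2 ratios of -0.92, -1.30 and -0.72.

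Of 15 receptor signalling genes counted, 6 were higher than in B_cell_1 and 0 lower, with a median log2 ratio of 1.03. Over all genes the share called higher was 25.1%, the share called lower 10.4% and the median 0.89. They included Syk (903 against 337 CPM), the kinase that couples CD79 to the pathway, Plcg2, Pik3ap1, and the NF-kB branch genes Malt1 and Nfkb1. Malt1, a protease of that branch, stood at 1235, 1103 and 1103 CPM in B_cell_3 and at 270, 296 and 315 CPM in B_cell_1 (log2 ratio 1.92). Of 15 activation genes counted, 3 were higher (Cd86, Nr4a2 and Tnfaip3), a smaller share than over all genes, with a median of 0.66. Cd69 and Cd83, which respond early to stimulation, were not called, with log2 ratios of 0.49 and 0.66. Of 13 immediate early genes, which follow cell handling as well as stimulation, only Fosb was called (1379 against 405 CPM), and Fos gave 0.50 and Junb -0.39. Against B_cell_2, 8 of 15 activation genes were higher, among them Cd83 (2134 against 489 CPM), beside 19.5% of all genes counted.

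Of 12 heat shock genes counted, 2 were called higher and 2 lower than in B_cell_1, beside 25.1% and 10.4% of all genes counted. Hspa5 and Hsph1, whose products fold proteins in the endoplasmic reticulum and cytosol, were higher (2104 against 712 CPM and 2206 against 816 CPM), while Hspe1 and Hspb1, which encode small chaperones, were lower (375 against 1344 CPM and 111 against 703 CPM). The 10 MHC class II genes, which present antigen to T cells, were counted in full with a median log2 ratio of 0.08. Cd74 stood at 27905 CPM in B_cell_3 and 29838 in B_cell_1, and only Ciita, the regulator of the class, was called (276 against 88.7 CPM). Of 3 cell cycle, 3 plasma cell and 1 germinal centre gene counted, 0 were called, and of 3 interferon response genes only Ifi27l2a was called, lower (99.7 against 388 CPM). Nfat5, the regulator of the response to hypertonicity, a known feature of the renal medulla, was higher in B_cell_3 (370 against 73.0 CPM), with 288, 482 and 344 CPM in cortex, OM and IM, so it did not rise steadily with depth in the kidney. Akr1b3, which makes the osmolyte sorbitol, was lower (49.0 against 114 CPM), and of 5 genes counted in that list these were the only ones called. The shares over all genes, 25.1% higher and 10.4% lower, stand beside each of these lists.

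**Figure D3:**
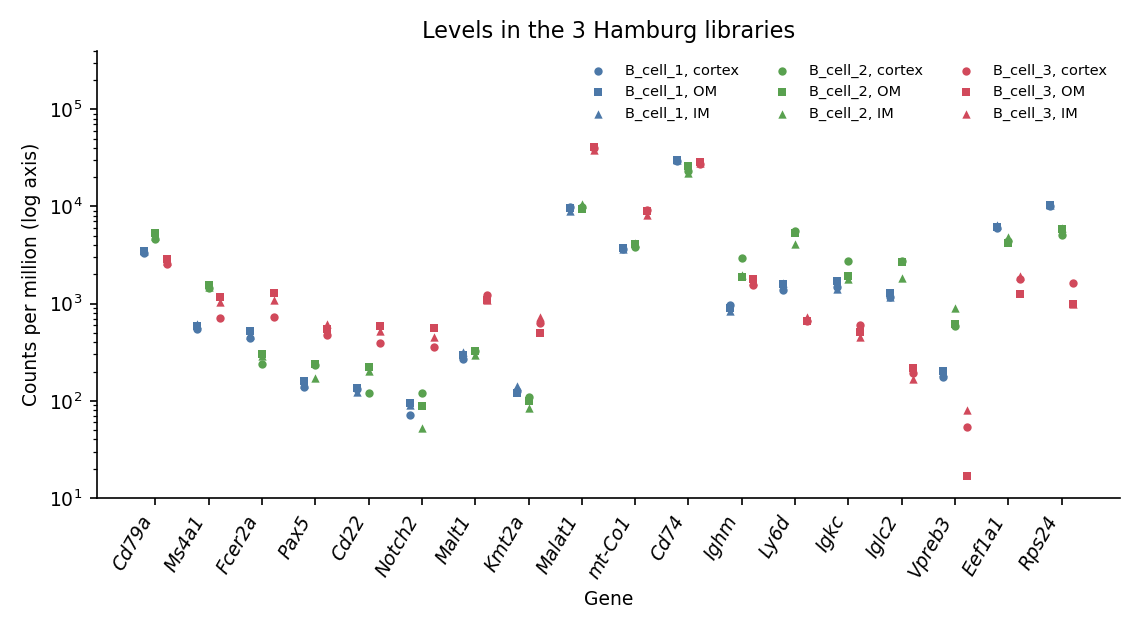
Levels in CPM (log y axis) of 18 genes (x axis) in B_cell_1, B_cell_2 and B_cell_3 of the 3 Hamburg libraries; colours are clusters and marker shapes are compartments, with 1 point per library. Pax5, Cd22, Notch2, Malt1, Kmt2a and Malat1 sit higher in B_cell_3, Cd74 sits level with B_cell_1, and Ly6d, Igkc, Iglc2, Vpreb3, Eef1a1 and Rps24 sit lower.

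Ribosomal protein genes were lower as a group. All 78 ribosomal protein genes counted were called lower than in B_cell_1, with a median log2 ratio of -2.60 in Hamburg and -0.62 in Bonn, and all 78 were also lower than in B_cell_2 (median -2.17). Rps24 stood at 1624, 994 and 991 CPM in B_cell_3 and at 10096, 10392 and 10379 CPM in B_cell_1. Among 29 translation factor genes 13 were lower, including Eef1a1 (1675 against 6143 CPM) and Tpt1 (718 against 3889 CPM), and 2 were higher, the scaffold genes Eif4g1 and Eif4g3. Of 48 nuclear-encoded genes of the respiratory chain 24 were lower and 0 higher (median -1.47). Transcripts of the mitochondrial genome went the other way, with 9 of 13 called higher and a median of 1.25. mt-Co1 stood at 9282, 9066 and 8132 CPM against 3671, 3728 and 3641 CPM. These gene groups were put together after the values had been seen. For comparison, 10.4% of all genes counted were called lower and 25.1% higher.

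RNAs retained in the nucleus and long messages lay at the high end. Malat1 stood at 39724, 40698 and 38320 CPM in B_cell_3 and at 9816, 9527 and 9039 CPM in B_cell_1. Neat1, the RNA core of paraspeckles, gave 561 against 126 CPM, and Kcnq1ot1, an antisense RNA of an imprinted locus, gave 199 against 32.7 CPM. Of 16 chromatin regulators, also grouped after the values had been seen, 13 were higher and 0 lower, with a median log2 ratio of 1.74, beside 25.1% of all genes called higher and 69.9% of genes with transcripts of 8 kb and over. They included the histone methyltransferase genes Kmt2a (630 against 130 CPM) and Kmt2c (575 against 92.9 CPM) and the acetyltransferase gene Ep300 (435 against 81.9 CPM). Per cell, several of these RNAs were counted as often as in B_cell_1 although B_cell_3 had fewer UMIs in all. The mean B_cell_3 cell held 822 UMIs and the mean B_cell_1 cell 2701. Malat1 gave 32.4 UMIs per B_cell_3 cell and 25.6 per B_cell_1 cell, Kmt2a gave 0.517 and 0.350, and Pax5 gave 0.455 and 0.404. Rps24 gave 0.970 and 27.8. Of the 2430 genes counted, 466 (19.2%) had at least as many UMIs per cell in B_cell_3 as in B_cell_1, 388 of them among the 610 called higher.

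The ratio between B_cell_3 and B_cell_1 followed transcript length. Each of 2247 protein-coding genes, leaving out ribosomal protein genes, the mitochondrial genome and Malat1, was given the length of its longest annotated transcript. The median log2 ratio in Hamburg was -1.56 for the 125 genes with transcripts under 1 kb, -0.42 for 348 genes of 1 to 2 kb, 0.65 for 722 genes of 2 to 4 kb, 1.31 for 803 genes of 4 to 8 kb and 1.66 for 249 genes of 8 kb and over. Of the shortest genes 58.4% were called lower and 3.20% higher, and of the longest 69.9% were called higher and 0 lower. The medians ran from -1.43 to 1.59 in cortex, from -1.51 to 1.68 in OM and from -1.59 to 1.63 in IM, so each library showed the same order. Across genes, Pearson's r between log10 length and the log2 ratio was 0.744 (Spearman's rho 0.738; 2247 genes of the same libraries, which are not independent replicates). Genomic span, the length of the gene with its introns, gave r = 0.623. In Bonn the medians rose from -0.25 to 0.63, with r = 0.340.

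**Figure D4:**
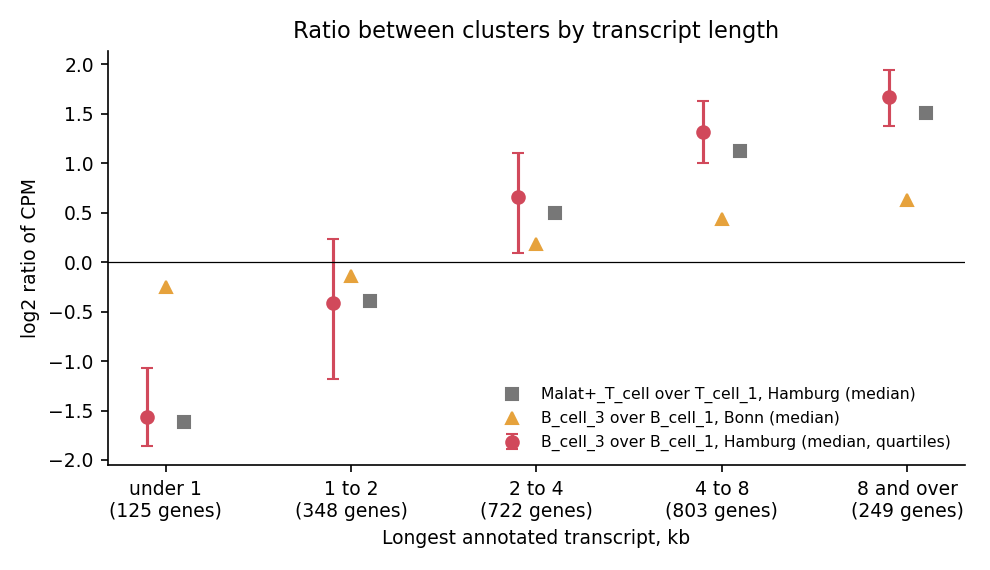
Median log2 ratio of CPM (y axis) in 5 bins of transcript length in kb (x axis, with the number of genes) for B_cell_3 over B_cell_1 in Hamburg (circles, bars from lower to upper quartile) and Bonn (triangles), and for Malat+_T_cell over T_cell_1 in Hamburg (squares). The Hamburg medians climb from -1.56 to 1.66, the T cell medians from -1.62 to 1.505, and the Bonn medians from -0.25 to 0.63.

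Set against genes of like length, most B cell genes of B_cell_3 lay near the middle. The median difference from the bin's median was 0.08 for the 14 B cell markers, 0.21 for the 10 follicular genes, 0.09 for the 15 signalling genes and 0.13 for the 16 chromatin regulators. Pax5 lay 0.16 above its bin, Syk 0.09 above and Plcg2 0.09 above. Genes that lay more than 1 above their bin included Cd22 (1.22), Cd86 (1.14), Ighd (1.11), Fosb (1.09) and Ighm (1.29). Genes that lay more than 1 below included Plac8 (-3.04), Blk (-1.61), Btg1 (-1.56), Ebf1 (-1.43) and Myc (-1.28). Blk encodes a kinase of the receptor, Ebf1 a factor of B cell specification and Btg1 an inhibitor of proliferation. Of the light chain constant genes, Igkc lay at its bin's median, Iglc1 at -0.63 from it, Iglc2 at -1.05 and Iglc3 at -1.49. Vpreb3 and Mzb1 lay at -0.14 and -0.10. The 78 ribosomal protein genes differed from their bins by a median of -1.34, and 62 of them lay more than 1 below. Part of this depends on the use of the longest annotated transcript, which need not be the one expressed. It placed Rps15a at 5.18 kb (-4.33 from its bin) and Rps20 at 3.71 kb (-3.60). The median log2 ratio of the 78 genes was -2.60, beside -1.56 for genes under 1 kb. The 13 mitochondrial transcripts all lay more than 1 above theirs, with a median difference of 2.79. Across all 2247 genes, 105 lay more than 1 above and 212 more than 1 below.

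The same profile was found in other cells named for Malat1. Hamburg also held 333 cells named Malat+_T_cell, which were 13.7% of its T cells against 3.49% in Bonn and 2.47% in Aachen, and 376 named Malat+_Macrophage, which were 27.9% of its macrophages against 8.85% and 14.97%. The median Malat+_T_cell cell held 948 UMIs, 3.14% ribosomal transcripts and 3.17% Malat1, and the median Malat+_Macrophage held 1154 UMIs, 2.40% and 3.71%. Over 1862 genes counted in both pairs, the log2 ratio of B_cell_3 to B_cell_1 and that of Malat+_T_cell to T_cell_1 had a Pearson's r of 0.936. Without ribosomal protein genes, mitochondrial genes and Malat1 it was 0.922, over 1771 genes. With Malat+_Macrophage over Macrophage_1 r was 0.898, over 1313 genes. These pairs share libraries, depth and base composition, though not cells. Of 456 genes that were higher in B_cell_3 and counted in T cells, 416 were at least 2-fold higher in Malat+_T_cell and 0 were 2-fold lower. Of 227 lower genes, 216 were at least 2-fold lower there and 0 were 2-fold higher. Over all 1862 genes, 40.2% were at least 2-fold higher and 18.0% at least 2-fold lower in Malat+_T_cell. Between Hamburg libraries the ratio of B_cell_3 to B_cell_1 had r from 0.818 to 0.847, and between Hamburg and Bonn r was 0.412 over 2430 genes.

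**Figure D5:**
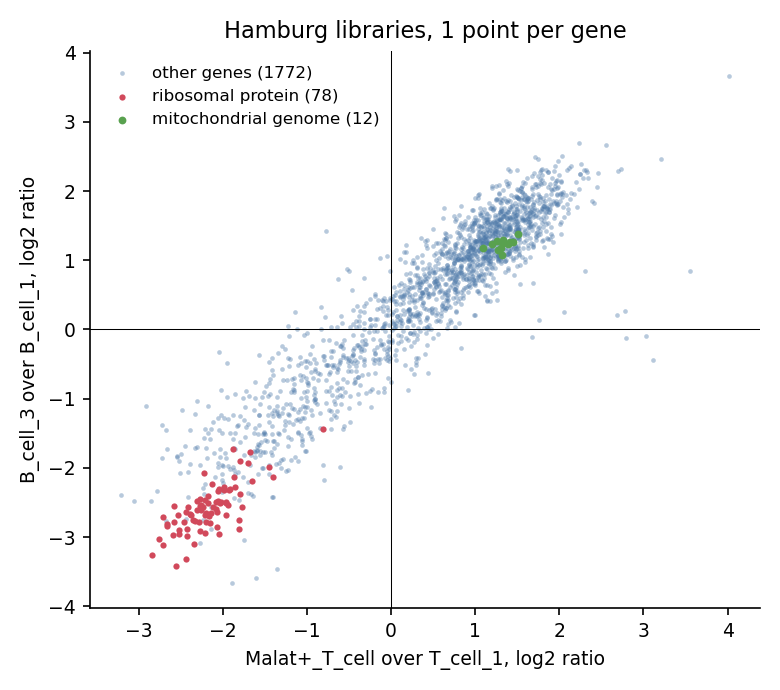
Each point is 1 of 1862 genes of the Hamburg libraries, with the log2 ratio of Malat+_T_cell to T_cell_1 on the x axis and of B_cell_3 to B_cell_1 on the y axis; ribosomal protein genes and the mitochondrial genome are coloured. The points follow the diagonal (r = 0.936), with the ribosomal protein genes at the low end of both axes.

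Immunoglobulin genes differed between the chains. Of 6 constant genes counted, 4 were lower than in B_cell_1, all of light chains, and 0 were higher, beside 10.4% and 25.1% of all genes. Igkc, the kappa constant gene, stood at 602, 514 and 448 CPM in B_cell_3 and at 1468, 1728 and 1424 CPM in B_cell_1. The lambda genes Iglc2 and Iglc3 gave 190 against 1211 CPM and 76.8 against 712 CPM. Ighm, which encodes the heavy chain of IgM, stood at 1552, 1774 and 1693 CPM against 976, 906 and 845 CPM. All 3 libraries lay above B_cell_1 but the difference was short of 2-fold. The ratio of Ighm to Igkc was therefore 2.58, 3.45 and 3.78 in cortex, OM and IM for B_cell_3, and 0.665, 0.524 and 0.594 for B_cell_1. In Bonn it was 0.708 for B_cell_3 and 0.631 for B_cell_1.

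Fewer B_cell_3 cells carried both light chain classes. At least 1 kappa and 1 lambda UMI were found in 16 of 225 Hamburg cells (7.11%), against 82.8% of B_cell_1 and 90.0% of B_cell_2. With cells thinned to 500 UMIs the shares were 2.22%, 26.3% and 45.5%. Each class alone was also rarer after thinning, with kappa in 20% of B_cell_3 and 45.0% of B_cell_1 cells, and lambda in 10.7% and 57.6%. Fewer cells with both classes thus went with fewer cells of either class, and stricter use of 1 class was not tested. A B cell normally expresses only one class. Igkc was found in 2.36% of Hamburg T_cell_1 cells (0.450% thinned) and in 7.21% of Malat+_T_cell (3.61% thinned), which do not transcribe it. In Bonn, 17 of 21 B_cell_3 cells held both classes (81.0%), against 92.7% of B_cell_1. At least 1 UMI of a switched isotype was found in 11 of the 225 Hamburg B_cell_3 cells and in 58 of 1134 B_cell_1 cells, at their unequal depths.

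Transcripts of other lineages were present in B_cell_3 at low levels, above those of B_cell_1 for some lineages and below for others. The 3 complement genes C1qa, C1qb and C1qc, made by resident macrophages, summed to 347, 303 and 323 CPM in B_cell_3 of Hamburg cortex, OM and IM and to 73.5 CPM in Hamburg B_cell_1. Per cell this was 0.266 against 0.198 UMIs. At least 2 C1q UMIs were held by 12 of 225 cells (5.33%) against 2.03% of B_cell_1, and after thinning by 3.56% against 0.441%. Malat+_T_cell, which should lack these genes, had 288 CPM and 6.91% of cells (3.31% thinned). Over the whole resident macrophage list of 14 genes, B_cell_3 summed to 1324, 1224 and 1649 CPM in its 3 libraries and B_cell_1 to 810 CPM. Per cell the order was the reverse, with 1.17 UMIs in B_cell_3 and 2.19 in B_cell_1. Of those genes 6 reached 50 CPM in B_cell_3, 2 reached it in B_cell_1 and Trem2 was at 0. At least 2 UMIs of T cell, NK cell or resident macrophage markers were held by 38.2% of Hamburg B_cell_3 cells and by 54.0% of B_cell_1 cells, at their unequal depths.

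Kidney tubule genes were higher in Hamburg B_cell_3 both in CPM and per cell, with 0.323 UMIs per cell against 0.0764 in B_cell_1. In Bonn their sum was 80.5 CPM in B_cell_3 and 143 CPM in B_cell_1, but with 21 B_cell_3 cells it rested on few UMIs and gives no direction. Gpx3, with 1 UMI in Bonn cortex and 1 in Bonn IM, went the other way (log2 ratio 0.74). The list of 12 summed in Hamburg to 357, 407 and 408 CPM in B_cell_3 and to 28.3 CPM in B_cell_1. It summed to 10.4 CPM in T_cell_1, 348 in Malat+_T_cell and 317 in Malat+_Macrophage. Among them Gpx3, an extracellular glutathione peroxidase made by the tubule, stood at 192, 186 and 162 CPM against 4.91 CPM. After thinning Gpx3 was detected in 12% of B_cell_3 cells, 0.617% of B_cell_1 and 8.43% of Malat+_T_cell. T cell genes did not follow this order. The 14 markers summed to 207 CPM in B_cell_3 and 229 CPM in B_cell_1, with 2 or more UMIs in 7 of 225 cells (3.11%) and in 5.03% of B_cell_1. Of the T cell markers 0 reached 50 CPM in either cluster, and Trbc1 was at 0 in B_cell_3. The neutrophil genes S100a8 and S100a9 were both called higher than in B_cell_1, where S100a8 was found in 0 of 1134 cells. Neutrophil markers summed to 989, 64.9 and 150 CPM in B_cell_3 of cortex, OM and IM, against 9.65 CPM in B_cell_1. The level in cortex rested largely on 1 cell, which held 21 of 25 S100a9 and 20 of 23 S100a8 UMIs. In OM and IM S100a9 gave 2 and 8 UMIs, with at most 2 in a cell. S100a8 was found in 5.33% of B_cell_3 cells (2.67% thinned) and in 6.61% of Malat+_T_cell (4.52% thinned). Summed NK cell markers gave 199 CPM in B_cell_3 and 127 in B_cell_1, with Klre1 and Klra8 at 0 in B_cell_3, and monocyte markers gave 79.0 and 32.3, with F13a1 and Ace at 0. Conventional dendritic cell markers gave 385 and 96.4 CPM, and plasmacytoid ones 234 and 277, with Siglech at 0. Endothelial markers gave 221 and 67.1 CPM, but 7 of 8 were at 0 in B_cell_3. ILC2 markers gave 73.7 and 84.4 CPM. Cells with 2 or more T cell, NK cell or resident macrophage UMIs and called doublets were then left out of all 3 clusters, a choice made after seeing the data. In Hamburg this removed 86 of 225 B_cell_3, 612 of 1134 B_cell_1 and 45 of 110 B_cell_2 cells. Of the remaining profile, 557 genes were higher than in B_cell_1 and 253 lower, and 435 were higher than in B_cell_2 and 291 lower.

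Doublet calls were 0 of 225 in Hamburg, where scrublet called 0.244% to 0.292% of all cells of a library. This was far below the expected rate of 6% that was set, as were the 0.0272% to 0.573% called in Aachen. The 0 calls thus do not show that doublets were absent. In Bonn, where it called 3.10% to 5.79%, 4 of the 21 B_cell_3 cells were called, against 9 of 1624 B_cell_1 cells. All 4 were cortex cells with 3598 to 13899 UMIs and 9 to 72 C1q UMIs, and the largest also held 14 UMIs of Cd3 genes. The other 17 Bonn cells held 0 C1q UMIs and 532 to 5705 UMIs. The C1q sum of Bonn B_cell_3 (2430 CPM, against 51.0 CPM in B_cell_1) thus came from those 4 cells. The single Aachen cell had 1725 UMIs, 17 of them C1q, 7 of B cell markers, and 13.04% Malat1. Of the Hamburg cells, those with a C1q UMI were as small as the rest, with a median of 739 UMIs in 58 cells and 757 in 167.

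Ranked over Bonn and Hamburg together, the genes highest in B_cell_3 were mostly macrophage genes. Against B_cell_1 their Bonn sums were 4 to 68 counts and their Hamburg sums 1.73 (Abca9) to 27.5 (C1qb). In Bonn the 4 cells called doublets held 36 to 123 resident macrophage marker UMIs each, and the other 17 cells 0 to 5 each. The ranking thus does not describe the cluster's usual cell. By the median of the log2 ratios of the 2 facilities, with 1 CPM added, the 15 genes most above B_cell_1 included Mmp13, Clec4a3, Slc11a1, Abca9, Cd68, Ifi207, Fyb, Aif1, Ms4a7, C1qb, Fcer1g, C1qc, Tgfbi and Fcgr4. C1qb stood at 1094 CPM in Bonn (68 UMIs) and 148 CPM in Hamburg. Against B_cell_2 the list was led by Ifitm3, C1qa, Mmp13 and Tmem176b. It also held Igkv6-25, with 1786 CPM in Bonn, where 111 UMIs lay in 1 cell of the cortex. The 10 genes most below B_cell_1 were light chain variable genes (Igkv14-126, Igkv2-109, Igkv8-28, Iglv2, Igkv3-5, Igkv12-44, Igkv10-94, Igkv6-32 and Igkv17-121) and Pqbp1, a splicing factor. Pqbp1 had 0 counts in both facilities, against 69.0 CPM in Hamburg and 88.3 CPM in Bonn B_cell_1. Variable genes differ between clones and share sequence with close relatives, so their counts are uncertain.

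The first comparison by compartment asked whether B_cell_3 was more common in the medulla. The share among B cells was higher in the medulla, taken as the mean of OM and IM, than in the cortex by 0.0969 percentage points in Aachen, 1.19 in Bonn and 1.16 in Hamburg. The mean difference was 0.816 points, which an exact two-sided permutation test of compartment within facility did not separate from 0 (p = 0.41, 27 arrangements, smallest possible p 0.037). Among all immune cells B_cell_3 made up 2.69%, 2.97% and 4.18% in Hamburg cortex, OM and IM, and the mean difference over the 3 facilities was 0.413 points (exact permutation p = 0.26). With cells called doublets left out the differences were 0.936 and 0.454 points (exact permutation p = 0.37 and 0.19). B cells made up 18.5%, 21.1% and 24.1% of the Hamburg cells in the same order. With cells sorted for CD45 and cut by hand, a share cannot be read as a number of cells per kidney.

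The cells with transcripts of other lineages were then compared by compartment. Of the libraries with at least 10 B_cell_3 cells, only Hamburg held all compartments, which allows 3 arrangements and no p below 0.33. Cells with 2 or more T cell marker UMIs were 1 of 66 in cortex, 1 of 73 in OM and 5 of 86 in IM, a medulla minus cortex difference of 2.08 points (exact permutation p = 1.0). For resident macrophage markers the counts were 24, 21 and 34, a difference of -2.21 points (exact permutation p = 1.0). Both differences were smaller than the gap between OM and IM.

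With facility as a block, gene levels by compartment could be tested only with a lower limit than planned. With at least 10 B_cell_3 cells per library, 4 libraries remained and the model with facility had no residual degree of freedom, so libraries of at least 5 cells were used, which gave 6 libraries from Bonn and Hamburg. In edgeR's quasi-likelihood test with facility as a block, 0 of 1322 genes (0%) differed between medulla and cortex, and DESeq2 also called 0. In edgeR 44 genes had an unadjusted p under 0.05, a smaller share of those tested than 0.05. OM against cortex gave 0 calls (0%; 41 unadjusted; DESeq2 0), and OM against IM gave 0 (0%; 16 unadjusted; DESeq2 1). IM against cortex gave 1 call (0.0756%), the variable gene Igkv17-127. With 5 to 86 cells per library, a count of 0 does not show that levels were equal. On counts simulated at the depth of these libraries, the medulla against cortex test recovered 12% of 2-fold and 67% of 4-fold changes. It made 4 false calls over 1007 genes. The simulation gave every library the same base profile and every gene the same dispersion. It thus left out the differences between Bonn and Hamburg cells, and the recovery is not that of the real counts.

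Igkv17-127 stood at 17.6, 0 and 215 CPM in Hamburg cortex, OM and IM and at 21.8, 0 and 3563 CPM in Bonn, a log2 fold change of 5.66 (edgeR adjusted p = 0.016). In Bonn IM all 23 of its UMIs lay in 1 of 5 cells, and in Hamburg IM 12 of 16 lay in 1 of 86 cells. The call was lost without the facility block and after thinning, with 0 genes called in each. Of the 10 genes with the smallest p for medulla against cortex, none was called, and they were Igkv1-110, AY036118, Gm26917, Vim, S100a11, Igkv6-15, Igkv6-23, C1qb, Cyba and Rpl36. Vim, an intermediate filament gene, was listed in Hamburg at 758 CPM in cortex, 236 in OM and 377 in IM and in Bonn at 764, 101 and 465 CPM (log2 fold change -1.61, edgeR adjusted p = 0.59). In Hamburg cortex 21 of its 43 UMIs lay in 1 cell, and in Bonn cortex 29 of 35.

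Whether the compartment effect differed between B_cell_3 and B_cell_1 was tested as an interaction. In the 4 libraries with at least 10 cells of both clusters edgeR called 0 of 8827 genes (0%), with 227 at an unadjusted p under 0.05 and 0 calls by DESeq2. This fit left 1 residual degree of freedom. On simulated counts it recovered 0% of 2-fold and 2% of 4-fold changes, so its 0 calls do not show equal effects. In the 6 libraries with at least 5 cells it called 3 of 6119 genes (0.049%), all of them immunoglobulin variable genes, Igkv14-100, Ighv10-3 and Igkv1-110.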

How the data were processed

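The authors aligned 10x reads to mm10 with Cell Ranger and filtered and clustered cells in Seurat. They deposited 1 table of raw values per cell with facility, compartment and cluster name. The deposited values were whole UMI counts in Aachen and Bonn and fractional estimated counts in Hamburg, where 0.107% of values in B_cell_3 were whole, and why is not given in the sources used here. Of these estimated counts the authors' values were summed as deposited for levels (CPM), and rounded in each cell for shares of cells, thinning and tests, which raised the Hamburg B_cell_3 sum to 103% of its value.

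The members and all gene lists were chosen with earlier results of these data known. Summed counts were tested in edgeR 4.0.16 (R 4.3.3) by quasi-likelihood with Benjamini-Hochberg adjustment at 0.05, with DESeq2 1.42.0 as an alternative. Both designs were run on simulated counts with 100 genes changed 2-fold and 100 changed 4-fold. The simulated libraries shared a base profile and a single dispersion, without facility differences. Recovery was 12% and 67% for medulla against cortex in 6 libraries. For the interaction in 4 libraries it was 0% and 2%. Facility was the block because every facility gave all 3 compartments. Libraries of at least 5 cells replaced the planned 10, a choice made after seeing the data, as was the 100 CPM and 2-fold rule. Doublets were scored per library with scrublet in scanpy 1.11.5. Transcript lengths came from GENCODE M21, matched for 99.6% of genes. Genes named between clusters were the 15 highest and 10 lowest by the median of the 2 facilities' log2 ratios, among genes of at least 50 CPM with the same sign in both. Between compartments they were up to 15 called genes or, under 5 called, the 10 smallest p. B_cell_3 sums ranged from 6455 to 72137 UMIs in the 6 libraries tested. Alternatives covered scaling, rounding, filters, tools, doubtful cells, depth and single facilities. Some genes that the rules select are not reported here.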

Additional observations from a re-analysis of the deposited data

Results flagged for a closer look

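3 variable genes stood out because their medulla against cortex effect differed between B_cell_3 and B_cell_1 in the interaction test over libraries of at least 5 cells (edgeR adjusted p = 0.038 for each). The difference was 5.36 on the log2 scale for Igkv14-100, -4.71 for Ighv10-3 and -4.79 for Igkv1-110. Igkv14-100 had 15 UMIs in 1 of the 5 Bonn IM cells, 0 UMIs in the other Bonn libraries, and 9, 7 and 1 UMIs in Hamburg cortex, OM and IM. Ighv10-3 had 14 UMIs in 1 Bonn cortex cell, 0 in the other Bonn libraries, and 2, 2 and 1 UMIs in Hamburg. Igkv1-110 had 67 UMIs in 2 Bonn cortex cells, 0 in the other Bonn libraries, and 12, 6 and 1 UMIs in Hamburg. In Bonn the UMIs of all 3 genes thus lay in 1 or 2 cells, and none of the calls remained in DESeq2, without the facility block or after thinning, where 0 genes were called.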

How the results depend on the processing

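Of 80 alternative values, 67 kept the direction and the side of the threshold or stayed within 1.5 times the count, 11 moved and 2 reversed. Some of the 67 could not have come out otherwise. These were the gene tests without Aachen, and the marker shares, given by Hamburg alone, without Aachen, Bonn or called doublets. Leaving out a Hamburg library eased a rule that asks for every library, and its counts rose. The 67 thus overstate how far the results were tried. Both reversals were in the share of B_cell_3 cells with T cell markers, 2.08 points in Hamburg alone, which became -2.17 without the replicate block and -3.96 over libraries of at least 5 cells. The same settings took the resident macrophage share from -2.21 to -24.0 and -23.6 points. The 610 genes higher than in B_cell_1 became 395 when ribosomal, mitochondrial and Malat1 UMIs were left out of the scaling, and all 395 were among the 610. Without the filter on low counts the compartment tests called 3 (medulla), 1 (OM) and 3 (IM) genes against cortex and 1 gene for OM against IM, all light chain variable genes or AY036118. DESeq2 called 1 gene, Igkv17-127, for OM against IM. The IM against cortex call fell to 0 without the replicate block and to 0 after thinning, and the 3 interaction calls became 0 in DESeq2, 0 without the replicate block and 0 after thinning. Leaving out the block changed no other call. Leaving out 1 facility gave medulla minus cortex shares of 0.631 to 1.18 points among B cells and 0.179 to 0.613 among immune cells, and leaving out 1 Hamburg library gave 741 to 794 genes higher and 288 to 293 lower than B_cell_1. Leaving out Aachen, which had no library of 5 cells, left the gene tests as they were (0, 0, 1 and 0 calls, and 0 and 3 for the interactions), and the marker shares at 2.08 and -2.21 points. Without Bonn, Hamburg or the doubtful cells no residual degree of freedom remained, and these alternatives gave no value. The planned fit of 4 libraries without the block called 4 genes lower in the medulla (Gm26917, AY036118, Igkv15-103 and Igkv6-25) and 0 in the other contrasts. Depth limited all of this, since B_cell_3 held a median of 750 UMIs in Hamburg and 21 cells in Bonn.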
